A study of Mus musculus with 12 samples.

Results

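The genes described here are those that the inflammatory stimulus left about level in mouse astrocytes and whose signal stood out upward on 1 array, that of activated cells treated with the compound coded E29. They were chosen on the authors' processed bead-array intensities, which are linear and in arbitrary units, with each gene read from its brightest probe over the 12 arrays. A gene was taken if its E29 intensity was at least 100, if the activated control lay between 0.8 and 1.25 times the non-activated control, and if E29 was at least 2 times the median of the other 11 arrays and at least 1.5 times the highest of them. The rule found 239 genes. They are 2.94% of the 8131 measured genes, that is, genes detected on at least 1 array at a detection p under 0.01, out of 16593 genes with a named probe. All 3 ratios of the rule come from the same 12 arrays, so the height of E29 and the match between the controls are properties of the choice and are given as description only.

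The cells were astrocytes grown from neural stem cells of the mouse line labelled Rosa25/OG2, differentiated for 4 days in 10% serum and matured for 14 days. The E29 group received the compound E29 on top of 2 stimuli, lipopolysaccharide (LPS) at 1 µg/ml and interferon-gamma at 10 ng/ml. LPS comes from the outer membrane of bacteria and acts on Toll-like receptors. Another 9 groups received the same stimuli with E33, E4, E5, E14 or E18, or with E19, E20, E21 or E23. The activated control received the stimuli without a compound, and the non-activated control received neither. The labels give 4 h as the treatment time and no dose for the compounds, which are known here only by code. Each group is 1 array, so a difference between groups is a difference between single arrays, with no measured spread, standard error or p-value. How many cultures stood behind an array is not stated. In bulk RNA of this kind, fewer cells of a type and less RNA per cell cannot be told apart.

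LPS and interferon-gamma switch on cytokine, chemokine and antigen-presentation genes in astrocytes. Most genes of the cell take no part in that response, and genes of metabolism, cilia, chromatin and membrane traffic are examples. The primary cilium is a single antenna-like organelle that astrocytes carry, built by intraflagellar transport. Replication-dependent histone genes lie in clusters and give mRNAs that mostly end in a stem-loop rather than a poly(A) tail, and U6 RNA is a short non-coding RNA of the spliceosome made by RNA polymerase III. The labelling kit named in the labels starts from an oligo-dT primer, so RNAs without a poly(A) tail are not its intended template.

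Promoters were looked up in the RefSeq promoter table of mouse assembly GRCm38.p6, which gives 250 bases before and 50 bases after each gene's start, and 196 of the 239 genes had an entry. Those of 3 clustered histone genes, the intraflagellar transport gene Ift172 and the muscle actin gene Acta1 are printed because these genes carry the groups described below and because all 6 histone members had an entry. Capitals mark matches, on either strand, to TATAAA (the TATA box core), CCAAT (the core of the NF-Y site), GGGCGG (the core of a GC box) or AAANNGAAA (the core of an interferon-stimulated response element). Each is written 5′ to 3′ along the gene's strand. The H2bc8 promoter lies at chr13:23571150-23571449 on the plus strand, that of H2bc18 at chr3:96269450-96269749 on the plus strand, that of H4c9 at chr13:22041313-22041612 on the minus strand, that of Ift172 at chr5:31291065-31291364 on the minus strand and that of Acta1 at chr8:123894726-123895025 on the minus strand.
H2bc8: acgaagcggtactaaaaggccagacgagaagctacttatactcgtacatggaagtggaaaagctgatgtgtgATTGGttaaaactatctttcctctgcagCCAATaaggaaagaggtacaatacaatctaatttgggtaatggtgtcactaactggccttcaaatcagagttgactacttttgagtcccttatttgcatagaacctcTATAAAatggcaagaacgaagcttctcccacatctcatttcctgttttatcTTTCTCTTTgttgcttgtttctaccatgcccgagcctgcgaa
H2bc18: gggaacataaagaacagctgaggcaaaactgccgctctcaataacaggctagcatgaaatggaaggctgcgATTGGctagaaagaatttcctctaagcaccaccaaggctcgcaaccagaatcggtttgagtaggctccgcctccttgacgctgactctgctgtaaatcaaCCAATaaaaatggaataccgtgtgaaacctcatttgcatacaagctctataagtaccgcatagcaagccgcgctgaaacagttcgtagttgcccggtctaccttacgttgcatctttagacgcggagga
H4c9: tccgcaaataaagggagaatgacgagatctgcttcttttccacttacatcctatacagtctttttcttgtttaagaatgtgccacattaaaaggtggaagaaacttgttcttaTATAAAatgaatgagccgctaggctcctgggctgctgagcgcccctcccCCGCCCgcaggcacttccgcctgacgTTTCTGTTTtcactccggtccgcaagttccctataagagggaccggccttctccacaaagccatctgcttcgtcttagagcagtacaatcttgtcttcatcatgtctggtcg
Ift172: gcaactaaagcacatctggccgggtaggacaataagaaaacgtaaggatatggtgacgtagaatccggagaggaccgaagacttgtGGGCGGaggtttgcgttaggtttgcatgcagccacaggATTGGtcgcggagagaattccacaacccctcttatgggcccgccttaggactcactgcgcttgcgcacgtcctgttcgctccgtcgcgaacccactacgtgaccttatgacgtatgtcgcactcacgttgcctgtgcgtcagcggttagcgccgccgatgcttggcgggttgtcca
Acta1: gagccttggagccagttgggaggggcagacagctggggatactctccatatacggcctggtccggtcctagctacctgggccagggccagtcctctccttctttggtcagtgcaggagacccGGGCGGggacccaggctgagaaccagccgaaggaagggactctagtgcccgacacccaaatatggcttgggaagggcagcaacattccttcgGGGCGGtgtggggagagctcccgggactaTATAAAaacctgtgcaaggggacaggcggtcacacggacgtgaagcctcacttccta
H2bc8 held 1 TATAAA, 2 CCAAT and 1 AAANNGAAA match, while H2bc18 held 2 CCAAT matches and no TATAAA. H4c9 held 1 TATAAA, 1 GGGCGG and 1 AAANNGAAA match. Ift172 held 1 CCAAT and 1 GGGCGG match and no TATAAA, and Acta1 held 1 TATAAA and 2 GGGCGG matches.

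The E29 array stood apart from the rest before any gene was chosen. It detected 9106 probes, against 10093 to 10719 on the other 11 arrays, and the 90th percentile of its deposited, non-normalised intensities was 680.02, against 689 on the E4 array and up to 882 on the others. In the processed values E29 was the highest of all 12 arrays for 43.1% of measured genes. Of 8131 measured genes, 964 (11.9%) were at least 2-fold above the median of the other 11 arrays on E29. Against the activated control 1166 (14.3%) were at least 2-fold higher with E29 and 1648 (20.3%) at least 2-fold lower. Within the genes that met the activation window and the minimum of 100, 3461 in all, 298 (8.61%) were 2-fold over the median of the others and 239 (6.91%) passed the whole rule. The same rule turned round found 397 activation-independent genes lowered with E29. With another compound in the place of E29 it found 4 genes for E4 (0.0492% of measured genes), 2 for E19 (0.0246%) and 0 for each of the other 7. Of 19 astrocyte markers with a probe, 17 were detected on the E29 array, with a summed intensity of 86829, against 68927 to 77996 on the other arrays. Bright genes weigh most in this sum, such as Cst3 at 17554.5 with E29. Of the 17, 14 were above the median of the others, and 6 with reference gene scaling. Sox9 was lower, at 228 with E29 against 329 in the activated control and 865 in the non-activated control. The sum is not read as a shift of cell types. None of 11 microglial markers was detected on any array.

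Most of the ratios lay between 2-fold and 3-fold. Over the 239 genes the ratio of E29 to the median of the other 11 arrays ran from 2.001 to 5.19 with a median of 2.26, and the ratio to the highest other array from 1.50 to 3.34 with a median of 1.73. At least 2.5-fold was reached by 59 genes, 3-fold by 15, and 4-fold by Rnu6, Sarnp and Siae, counting undetected values as measured. With those raised to the lowest detected value of their array, 59 genes reached 2.5-fold, 14 reached 3-fold (Trappc12 no longer did) and Rnu6 and Siae reached 4-fold. Against the activated control 223 were at least 2-fold higher, beside 14.3% of all measured genes, and against the non-activated control 203 were, beside 11.1%. Both held for 190. The other 11 arrays lay close together: their highest value was a median of 1.63 times their lowest, and under 2 times for 214 of the genes. The activated control was a median of 0.979 times the non-activated control, with limits that the rule itself sets. All 239 genes were detected on the E29 array and 215 on all 12 arrays. The activated control did not detect 6 of them and the non-activated control 2, so that ratios of those genes are lower bounds, computed against the lowest detected value of the array.

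**Figure D1:**
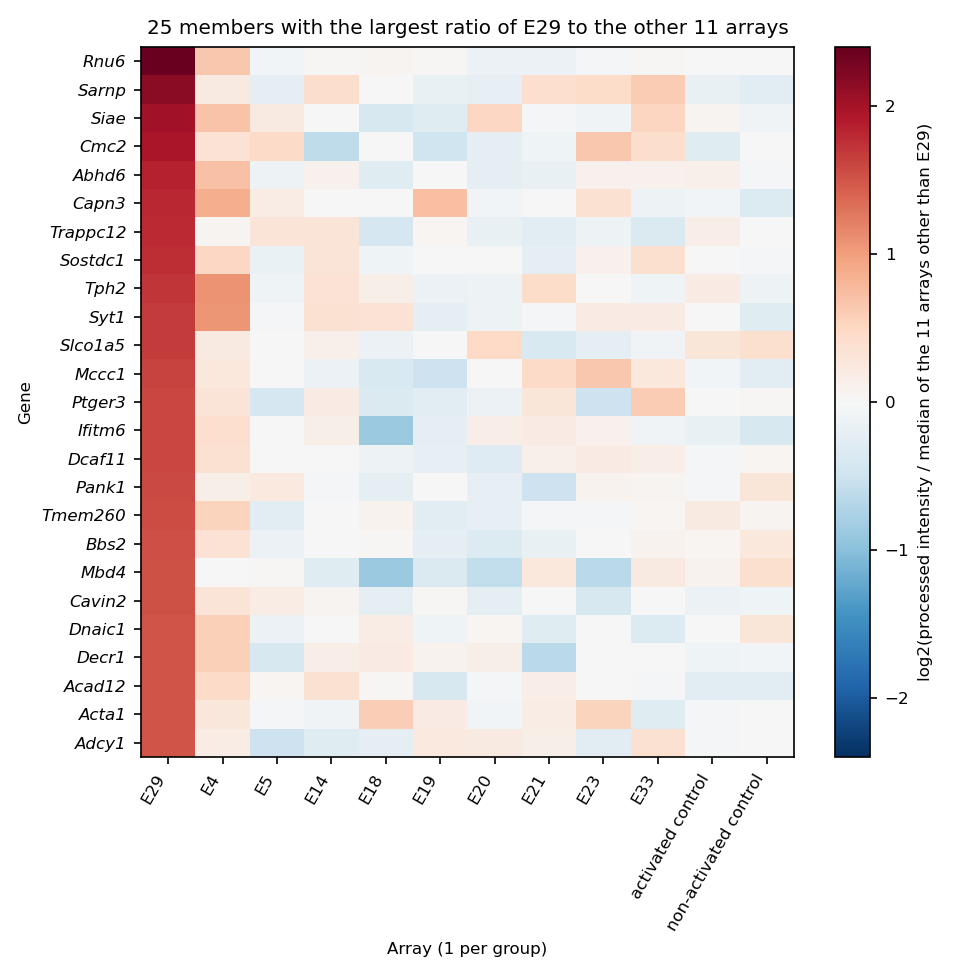
Log2 ratio of each array's processed intensity to the median of the 11 arrays other than E29, for the 25 members with the largest E29 ratio (1 row per gene, 1 column per array, E29 at the left and both controls at the right). The E29 column is high in every row because the rule chose it, from 5.19 times the median for Rnu6 to 2.83 times for Adcy1, with undetected values counted as measured (at least 2.60 times for Adcy1 as a bound).

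How large the rise is depends on the scaling. All 239 genes were above the median of the other 11 arrays in each of the 6 scalings computed, but the number at least 2-fold above it was 239 in the processed values, 200 after neqc (limma's background correction and quantile normalisation; background 8.14% of measured genes), 81 with a larger neqc offset (background 3.0%), 24 when background-corrected values were scaled to a common median (background 1.66%), 9 when scaled on 10 reference genes (background 0.787%) and 1 in the deposited intensities without normalisation (background 0.148%). The median log2 ratio of the genes was 1.18 in the processed values, beside 0.21 over all measured genes. It was 0.60 beside -0.32 with reference gene scaling, and 0.38 beside -0.04 in the deposited intensities. The distance of the genes from all measured genes was therefore 0.97 in the processed values, 0.92 with reference gene scaling and 0.42 in the deposited intensities. Against the activated control, 198 genes were at least 2-fold higher after neqc (background 10.7%), 108 with the larger offset (4.49%), 37 with the common median (2.26%), 8 with reference gene scaling (0.873%) and 1 in the deposited intensities (0.197%). Against the non-activated control these counts were 189 (7.45%), 93 (2.75%), 15 (0.418%), 4 (0.0984%) and 1 (0.0246%). E29 was above every other array for 234 of the 239 in the deposited intensities, beside 23% of all measured genes, for 238 with reference gene scaling, beside 11%, and for all 239 with the common median, beside 30.7%, and after neqc, beside 43%. The 9 genes that kept 2-fold with reference gene scaling were Rnu6, Sarnp, Siae, Cmc2, Capn3, Sostdc1, Slco1a5, Pank1 and Bbs2. The direction of the genes below thus held in all of these scalings against the median of the others, and their fold values are those of the processed intensities.

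**Figure D2:**
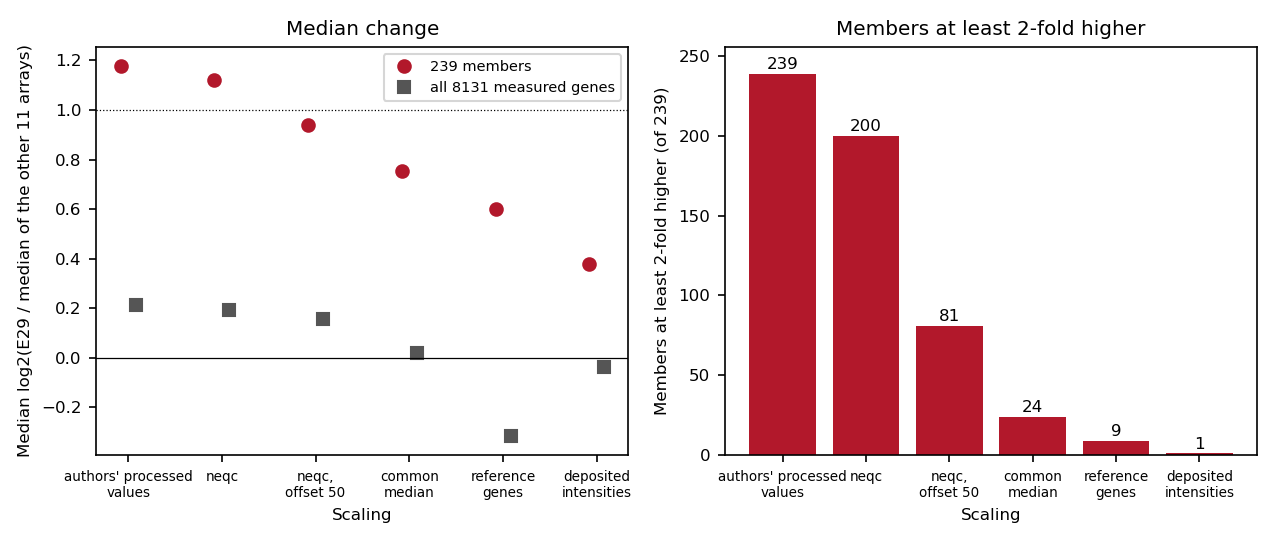
Left, the median log2 ratio of E29 to the median of the other 11 arrays for the 239 genes (circles) and for all measured genes (squares) under 6 scalings, and right, bars with the number of the 239 genes at least 2-fold higher. The medians of the genes lie above those of all measured genes in every scaling, while the count is 239 in the processed values, 9 with reference gene scaling and 1 in the deposited intensities. The genes were chosen on the processed values of the same arrays.

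The choice fell mainly on genes of low and middle signal. The median E29 intensity was 218, with 104 genes under 200, 35 at 500 or more and 3 at 1000 or more. Among genes inside the activation window, whatever their E29 intensity, the share reaching 2-fold on E29 was 25.2% where the other arrays had a median of 25 to 50, 23.8% at 50 to 100, 13.2% at 100 to 200, 5.04% at 200 to 500, 0.318% at 500 to 1000 and 0.0867% above that. The share fell with signal at every step. The part that signal level plays in the choice was not tested.

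The strongest member was Rnu6, U6 small nuclear RNA, which pairs with the 5′ splice site and U2 in the active spliceosome. Its intensity was 5221 with E29, between 907 and 1564 (median 1023) with the other 9 compounds, 1005 in the activated control and 993 in the non-activated control. The E29 array was 5.19 times the activated control and 3.34 times the next array, E4, and the other 11 arrays did not reach it. It was the 1 gene at least 2-fold up in the deposited intensities too, where it stood at 6002 with E29 against a median of 1121 and a highest value of 1587 on the other arrays. The log2 ratio was 1.90 or more in all 6 scalings. Of the 3 measured genes in the family of small RNAs and their hosts, Rnu6 was the only member of the set, and Snora65, a small nucleolar RNA, was lower with E29 by a log2 ratio of -2.31. U6 is encoded in many near-identical copies, so the probe cannot be tied to 1 locus.

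Histone genes were mostly higher with E29. Of 36 measured histone genes, 6 were members (16.7%, beside 2.94% of all measured genes), 9 were at least 2-fold above the median of the other arrays with E29 (beside 11.9%), and none was 2-fold lower. The 9 became 5 with neqc, 2 with the larger offset and 0 with the common median, with reference gene scaling and in the deposited intensities. On E29 35 of the 36 were above the median of the others, and 27 of the 36 with reference gene scaling. Their median log2 ratio was 0.77, beside 0.21 for all measured genes, and 0.22 beside -0.32 with reference gene scaling. The share of all measured genes above the median of the others is not given here. Against the activated control alone E29 was higher in 59.2% of all measured genes, and in 30.8% with reference gene scaling. The linker histone H1f10 and the core histones H2ac21, H2bc6, H2bc8, H2bc18 and H4c9 make up the 6. H2bc6 had an intensity of 1090.4 with E29, 466 to 657 (median 509) with the other compounds, 469 in the activated control and 472 in the non-activated control. H4c9 had 947 with E29, 377 to 568 (median 473) with the other compounds, 425.5 in the activated control and 495 in the non-activated control. In both genes the E29 array was clear of all others, which spanned 1.41 times for H2bc6 and 1.51 times for H4c9 from lowest to highest. H2bc18 read 422 with E29, 159 to 254.7 (median 188) with the other compounds, 158.5 in the activated control and 181 in the non-activated control. H2ac21 had the largest ratio of the 6, 2.56 times the median of the others, with 171 on E29 against 55.6 in the activated control and 66.8 in the non-activated control. All other arrays stayed below the E29 array in these genes as well. H1f10 had 335 with E29 against 133 in the activated control and 163 in the non-activated control. H2bc8 had 109 with E29 against 45.9 in the activated control and 46.1 in the non-activated control. On 5 of the 6 genes E4 was the next highest array. The coding sequences of histone genes of 1 type are nearly the same, so the probes may read several copies. The remaining 3 histone genes that were 2-fold up, H2ac22, H4c6 and H4c18, were not members. Of the 6 members 3 had TATAAA in the promoter and 4 had CCAAT, including the ones printed above.

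Genes of cilia and centrosomes made up 15 of the 239 by a grouping made after the genes were seen. No share over all measured genes was computed for this or the other role groups below. Their counts order the description and are not read as results about the members. They ranged from 2.04 to 2.91 times the median of the others. Bbs2, a subunit of the BBSome that moves membrane proteins in the cilium, read 307 with E29, 83.8 to 133 (median 105) with the other compounds, 109 in the activated control and 125 in the non-activated control. Ttc8, also of the BBSome, read 445 with E29 against 199.8 in the activated control and 239 in the non-activated control. Ift172, of the intraflagellar transport complex that carries cargo to the tip, read 922 with E29, 384 to 579 (median 453) with the other compounds, 438 in the activated control and 480.4 in the non-activated control. In these 3 genes E29 was the top array and E4 the next. Tmem218, a transmembrane protein of the ciliary transition zone, read 923 with E29 against 337 in the activated control and 418 in the non-activated control. Dnaic1, an intermediate chain of the outer dynein arm of motile cilia, read 126 with E29 against 44.0 in the activated control and 53.9 in the non-activated control. Wdr78, Daw1, Rpgr, C2cd3, Ift122 and Wdpcp, all ciliary or basal body genes, were chosen as further examples after their values were seen, with ratios between 2.04 and 2.51. In a family of intraflagellar transport and BBSome genes drawn up after the members were seen, 21 were measured, 4 were members (beside 2.94% of all measured genes), 9 were 2-fold up with E29 (beside 11.9%) and 1, Bbs12, was 2-fold down. Bbs12 lay at the floor of 10 on E29 and was detected on 3 arrays. The 9 became 6 with neqc, 4 with the larger offset, 1 with the common median, 1 with reference gene scaling and 0 in the deposited intensities. The 5 others that were 2-fold up (Bbs7, Bbs9, Ift140, Ift57 and Ift88) failed the activation window, since the activated control was 0.61 to 0.78 times the non-activated control.

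**Figure D3:**
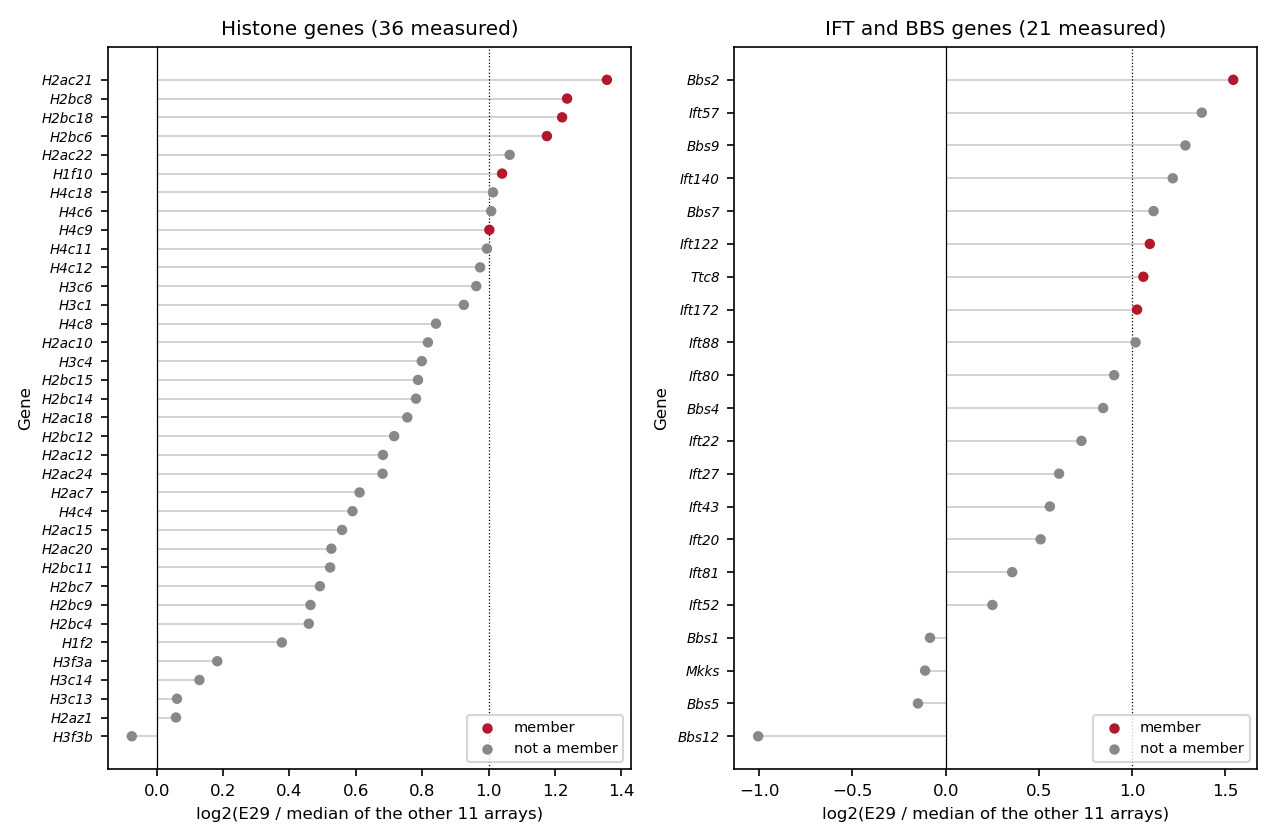
Log2 ratio of E29 to the median of the other 11 arrays in the processed values for each of the 36 measured histone genes (left) and of the 21 measured intraflagellar transport and BBSome genes (right), members in red and other genes in grey. Of the histone genes 35 lie above 0, with a median of 0.77, and of the ciliary genes 17, with a median of 0.84. The median over all measured genes was 0.21.

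Genes of fatty acid and branched-chain amino acid metabolism, most of them mitochondrial, numbered 14, with ratios of 2.02 to 3.06. Mccc1, a subunit of the carboxylase of leucine breakdown, read 114 with E29, 26.3 to 58.2 (median 37.6) with the other compounds, 35.6 in the activated control, where it was not detected, and 31.3 in the non-activated control, and was at least 3.04-fold over the median of the others when undetected values were raised to the array's lowest detected one. Pank1, the kinase that starts coenzyme A synthesis, read 262 with E29, 62.5 to 104 (median 88.0) with the other compounds, 86.2 in the activated control and 107 in the non-activated control. Decr1, a reductase for unsaturated fatty acids, read 153 with E29, 34.3 to 79.6 (median 56.9) with the other compounds, 49.96 in the activated control and 51.5 in the non-activated control. Acad12, an acyl-CoA dehydrogenase family member, read 147 with E29 against 43.6 in the activated control and 43.2 in the non-activated control. E29 stood above all other arrays in these 4 genes, by 1.92 times or more. In the acyl-CoA dehydrogenase family, added after the genes were seen, all 9 measured genes were above the median of the others and 3 were members (Acad8, Acad10 and Acad12; 33.3%, beside 2.94% of all measured genes), with a family median log2 ratio of 0.77. With reference gene scaling that median was 0.25, 6 of the 9 were above and 0 were 2-fold higher. No share of all measured genes above the median of the others is given, so the counts above it are description only. Cpt1c, Fabp5, Hadh, Hacl1, Acsf3, Acot11, Bckdhb and Echdc2 complete the 14 and lay between 2.02 and 2.59 times.

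A further 14 members work in mitochondria outside these pathways. Cmc2, a factor needed for cytochrome c oxidase assembly, read 149.5 with E29, 24.9 to 59.9 (median 38.6) with the other compounds, 31.1 in the activated control, where it was not detected, and 38.2 in the non-activated control. It was detected on 8 arrays and at least 4.17-fold over the activated control. Ndufb2, the single member among 79 measured respiratory-chain genes, read 274 with E29 against 102 in the activated control and 95.2 in the non-activated control. Mrpl15, the single member among 70 mitochondrial ribosomal protein genes, read 143 with E29 against 58.0 in the activated control and 69.8 in the non-activated control. These single members are 1.27% and 1.43% of their families, below the 2.94% of all measured genes. The median log2 ratio of the respiratory-chain genes was 0.26, beside 0.21 over all measured genes, and 72 of the 79 were above the median of the others. It was 0.38 beside 0.02 with the common median, with 76 of the 79 above. With reference gene scaling it was -0.24 beside -0.32, with 19 of the 79 above. The share of all measured genes above the median of the others is not given, so these counts are description only. The median of the mitochondrial ribosomal protein genes was 0.08, and -0.44 with reference gene scaling.

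Among lipid mediator and lipase genes, 11 in all, Abhd6, the lipase that degrades the endocannabinoid 2-arachidonoylglycerol, had the largest ratio. It read 139 with E29, 31.5 to 63.0 (median 38.6) with the other compounds, 42.2 in the activated control and 38.1 in the non-activated control, which is 3.61 times the median. Faah, which degrades anandamide, the other main endocannabinoid, read 125 with E29 against 58.0 in the activated control and 67.4 in the non-activated control. Ptgds, Pla2g7, Lta4h, Cyp46a1, Dgka, Mboat2 and Pnpla1 were examples chosen after their values were seen, with ratios of 2.06 to 2.63.

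Of 14 secreted factors and receptors, Sostdc1, a secreted antagonist of BMP and Wnt signalling, showed the highest ratio. It read 360.5 with E29, 90.5 to 149 (median 105) with the other compounds, 106 in the activated control and 102.5 in the non-activated control, and was 2.41 times its next highest array. In the deposited intensities the same gene read 380.3 with E29, against a median of 209 and a highest value of 247 on the other arrays. Ptger3, the receptor EP3 for prostaglandin E2, read 118 with E29, 27.5 to 59.5 (median 35.4) with the other compounds, 38.8 in the activated control and 39.9 in the non-activated control, and was detected on 8 arrays. Tgfb2, Wnt5b, Fgf1, Il33 and Lpar4 were examples chosen after their values were seen. Tgfb2 read 605 with E29 against 267 in the activated control and 303 in the non-activated control. Il33, an alarmin cytokine kept in the nucleus, read 316 with E29 against 170.3 in the activated control and 158 in the non-activated control. The laminin receptor subunits Itga6 and Itgb4 were the members among 25 measured collagen, laminin and integrin genes (8.0%, beside 2.94% of all measured genes). Itga6 read 220.1 with E29 against 75.3 in the activated control and 87.0 in the non-activated control. Itgb4 read 567 with E29 against 249.5 in the activated control and 305 in the non-activated control.

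Transport genes contributed 9 members. Slco1a5, an organic anion transporter, read 189 with E29, 46.0 to 82.1 (median 58.8) with the other compounds, 72.2 in the activated control and 77.0 in the non-activated control, 3.20 times the median. Slc22a4, which carries ergothioneine, read 319 with E29 against 139 in the activated control and 125.5 in the non-activated control. Slc35a5, Slc12a8, Slc30a9 and Slc14a2 lay between 2.11 and 2.65 times the median. These 5 Slc genes stood among 165 measured solute carrier genes (3.03%, near the 2.94% of all genes), of which 23 were 2-fold higher and 16 2-fold lower with E29. That balance turned with the scaling, to 4 higher and 20 lower with the common median, 1 and 26 with reference gene scaling, and 0 and 12 in the deposited intensities. Of 107 measured Tmem genes 7 were members (6.54%, beside 2.94% of all measured genes). They were Tmem19, Tmem25, Tmem143, Tmem184c, Tmem185a, Tmem218 and Tmem260. Among the 107, 15 were 2-fold higher (beside 11.9%) and 11 2-fold lower with E29. These became 4 and 13 with the common median, 1 and 16 with reference gene scaling, and 1 and 7 in the deposited intensities. Tmem260 read 241 with E29 against 95.0 in the activated control and 85.9 in the non-activated control.

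Among 12 synaptic and neuronal genes, Syt1, the calcium sensor of synaptic vesicle release, read 206 with E29, 55.3 to 134 (median 73.4) with the other compounds, 64.2 in the activated control and 52.4 in the non-activated control. Its highest other array was E4, at 134. Tph2, the neuronal enzyme of serotonin synthesis, read 124 with E29, 34.1 to 79.5 (median 37.7) with the other compounds, 43.1 in the activated control and 34.8 in the non-activated control, detected on 10 arrays. Adcy1, a calmodulin-stimulated adenylyl cyclase, read 100.3 with E29 against 34.9 in the activated control, where it was not detected, and 35.4 in the non-activated control. Cdk5, the kinase activated by p35 in neurons, read 458 with E29 against 220.3 in the activated control and 266 in the non-activated control. Neuronal markers as a whole were 3 of 14 detected on E29 against 3 to 5 on the others, with a sum of 3849 against 2613 to 3269. Map2 alone gave 3182 of the E29 sum. Of 5 measured neuronal markers 3 were above the median of the others with E29, and 1 with reference gene scaling. Gad1 was lower, at 17.7 with E29 against 62.8 in the activated control and 52.1 in the non-activated control. Dcx, detected on 2 arrays, lay at 0.82 times the median of the others. Of oligodendrocyte markers 2 of 11 were detected on E29, with a sum of 5065 against 2619 to 3594 on the others. The 2 were Olig1, at 3557 with E29, and Cnp, a myelin enzyme also present in other glia, which was a member. Cnp read 1417 with E29, 613 to 850 (median 671) with the other compounds, 577 in the activated control and 677 in the non-activated control. Vascular and mesenchymal markers were lower, with a sum of 1875 on E29 against 3883 to 6876 on the others, 1 of 10 detected. That 1 was Acta2, which gave 1774 of the E29 sum. It read 6786 in the activated control and 3793 in the non-activated control. These sums rest mainly on the few genes named here and are not read as shifts of cell types. The part these lists play in the rise of the members was not tested.

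Smaller groups held members of DNA repair, muscle and innate immunity. In DNA repair there were 7, among which Mbd4, a glycosylase for thymine and uracil at CpG, read 119.8 with E29, 22.5 to 49.4 (median 34.2) with the other compounds, 44.3 in the activated control and 54.5 in the non-activated control. Xrcc4 and Nhej1, both of non-homologous end joining, lay at 2.10 and 2.09 times the median. Polb, the base excision polymerase, lay at 2.44 times. Among 5 genes of muscle contraction and oxygen storage, Acta1, skeletal muscle actin, read 181 with E29, 51.7 to 95.6 (median 72.1) with the other compounds, 62.4 in the activated control and 63.6 in the non-activated control. Mb, Myl1, Tnnc1 and Tnnt1 lay at 2.12 to 2.74 times. The 5 genes of innate immunity included Irak1, a kinase of Toll-like receptor signalling, with 174 on E29 against 61.5 in the activated control and 51.2 in the non-activated control. Hc, complement C5, read 241 with E29 against 80.9 in the activated control and 97.1 in the non-activated control. Phkb and Phkg1, subunits of the kinase that activates glycogen phosphorylase, lay at 2.08 and 2.06 times the median.

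Genes of the endoplasmic reticulum, Golgi and membrane traffic gave 15 of the 239, and those of RNA processing and transcription gave 9. Trappc12, of a TRAPP tethering complex, read 105 with E29, 22.98 to 37.6 (median 27.9) with the other compounds, 34.0 in the activated control and 30.5 in the non-activated control, and was detected on 3 arrays, so its ratio to the median of the others was at least 2.93. Rab13, the 1 member among 43 measured Rab genes, read 243 with E29 against 107 in the activated control and 108.1 in the non-activated control. That is 2.33% of the Rab genes, near the 2.94% of all measured genes. Sarnp, a factor of mRNA export, read 105 with E29, 20.3 to 36.02 (median 27.4) with the other compounds, 20.7 in the activated control and 19.4 in the non-activated control, and was detected on 2 arrays. It was at least 2.93-fold over the activated control and at least 3-fold over the median of the others when undetected values were raised to the lowest detected value of their array. Med12 of the Mediator complex, Kat2b, a histone acetyltransferase, and Taf6 of TFIID were examples chosen after their values were seen, at 2.15 to 2.41 times.

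The highest ratios also held genes outside these groups. Siae, an acetylesterase for sialic acid, read 161 with E29, 30.4 to 64.2 (median 39.9) with the other compounds, 41.6 in the activated control and 37.7 in the non-activated control. Capn3, a calpain known from muscle, read 147 with E29, 38.8 to 76.3 (median 42.1) with the other compounds, 39.9 in the activated control and 33.2 in the non-activated control. Ifitm6, of the interferon-induced transmembrane family, read 155 with E29 against 44.997 in the activated control and 39.1 in the non-activated control. Dcaf11, a substrate receptor of the CUL4 ubiquitin ligase, and Cavin2, a coat protein of caveolae, lay at 3.03 and 2.88 times the median. Ankrd46, Wdr45, Ganc and Fam216b complete the 10 members with the highest E29 intensity, which reflects the probe as well as the RNA. Ankrd46 read 937 with E29 against 429.7 in the activated control and 432 in the non-activated control. Wdr45, an autophagy protein, read 903 with E29 against 426 in the activated control and 475 in the non-activated control. All 4 lay between 2.03 and 2.19 times the median of the others. Ganc, a glucosidase, read 889.7 with E29 against 450.5 in the activated control and 401 in the non-activated control. Fam216b read 889 with E29 against 397 in the activated control and 419 in the non-activated control.

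**Figure D4:**
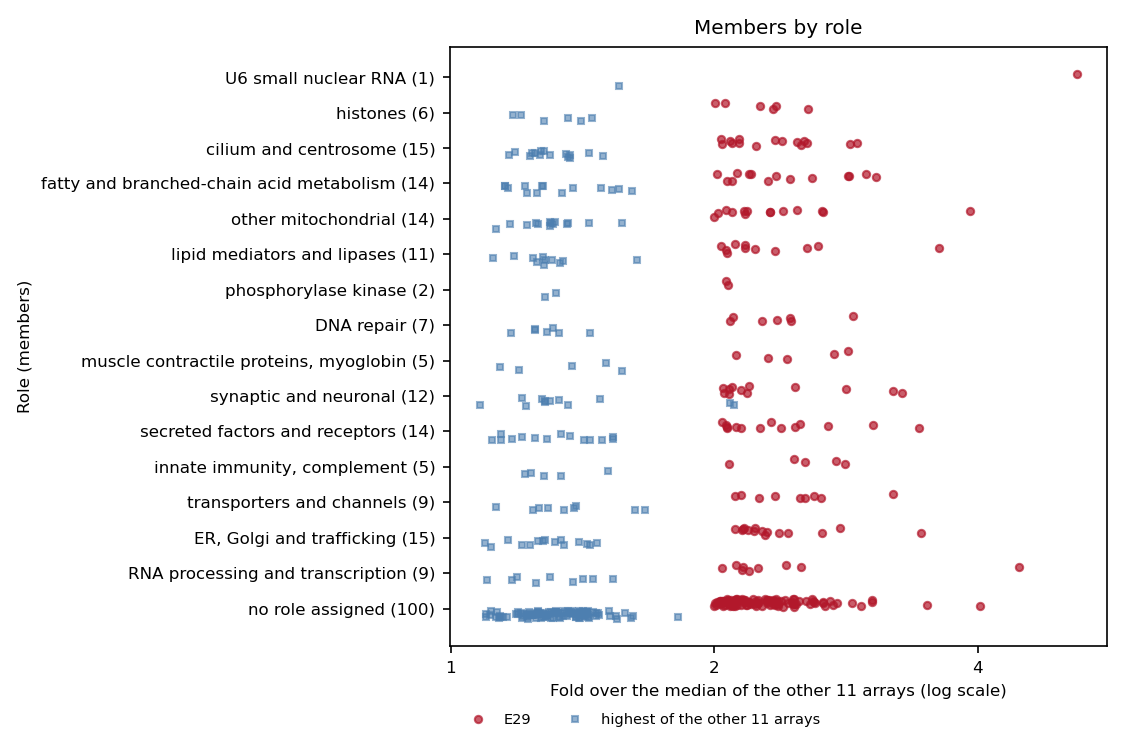
Fold over the median of the other 11 arrays on a log axis, by role group (number of members in brackets), for E29 (circles) and for the highest other array (squares), 1 point of each kind per member. Rnu6 stands alone at 5.19, most groups lie between 2 and 3, and 100 members had no role assigned.

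The pathway and marker lists held at most 23 measured genes each, against a share of 2.94% chosen among all measured genes, so a count of 0 in a list of this size is not read as a result. The activation window of the rule also leaves out genes that respond to the stimuli, which bears on the interferon-gamma (23 measured), NF-kB (16) and immediate early (15) lists. No member lay in the lists for the interferon-gamma response, NF-kB and cytokines, immediate early genes, p53, the integrated stress response, heat shock, Nrf2 and glutathione, cholesterol, glycolysis, lysosome and autophagy, BMP and Id genes, Notch and Wnt, the circadian clock, FoxO, the cell cycle, transcriptional pause release, reference genes, astrocytes, neural stem cells or vascular cells. Among 161 measured Zfp zinc finger genes 0 were members (beside 2.94%), 2 were 2-fold higher (beside 11.9%) and 93 2-fold lower with E29. Only 56 of the 161 were detected on all 12 arrays. The 93 became 79 with neqc, 50 with the larger offset and 86 with the common median. They became 107 with reference gene scaling and 41 in the deposited intensities. Among 58 kelch and F-box genes 0 were members, with 8 higher (beside 11.9%) and 15 lower. These became 1 and 20 with reference gene scaling, and 0 and 8 in the deposited intensities. The share of all measured genes 2-fold below the median of the others is not given here, so the lower counts are description only. Among 53 cytosolic ribosomal protein genes none was 2-fold either way.

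The array of E4 leaned the same way. It was the highest of the other 11 arrays for 148 of the 239 genes (61.9%), beside 21.2% of all measured genes and 24.2% of those with E29 at least 100. E33 followed with 30 and E23 with 13, and the activated control was the highest for none. No share over all measured genes is given for E33, E23 or the activated control, so their counts are description only. E4 was above the activated control in 219 of the 239 (91.6%, beside 53.5% of all measured genes) and at least 1.25-fold above it in 150 (62.8%, beside 23.2%). The median log2 ratio of E4 to the activated control over the genes was 0.41, beside 0.04 over all measured genes, while those of the other 8 compounds lay between -0.01 and 0.13. With reference gene scaling the E4 median was -0.01 beside -0.34 over all measured genes, and in the deposited intensities -0.04 beside -0.18, so the sign turned in those scalings. E4 and E29 had the 2 lowest 90th percentiles of deposited intensity, and the part this plays was not tested. All of these ratios share the activated control array.

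**Figure D5:**
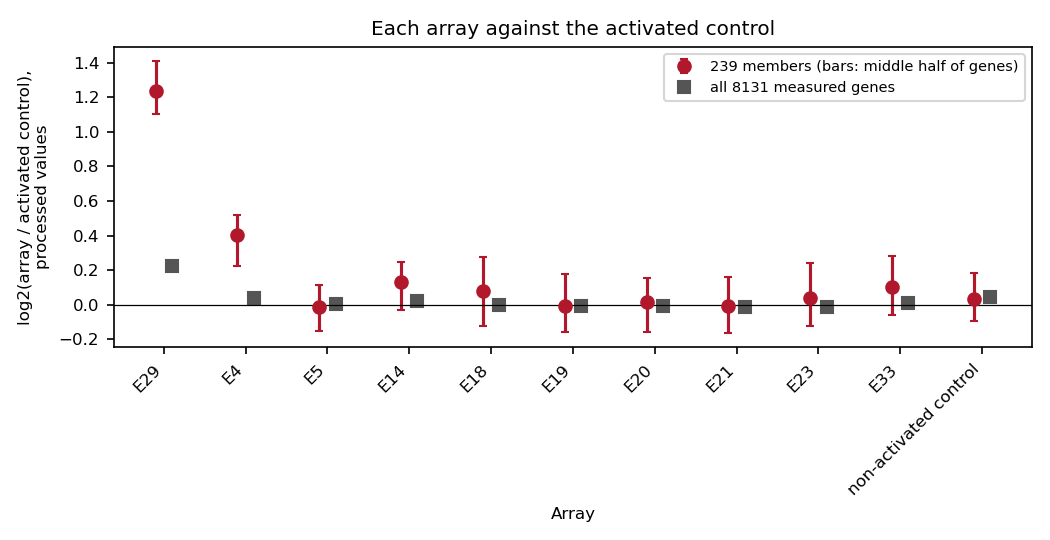
Median log2 ratio of each array to the activated control over the 239 genes (circles, bars from the lower to the upper quartile) and over all measured genes (squares), in the processed values. E29 stands at 1.23 by choice of the genes, E4 at 0.41 and the other 8 compounds between -0.01 and 0.13, with all measured genes at 0.22 on E29 and 0.04 on E4.

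Further probes of the same genes, which the rule did not use, gave a check within the same arrays and RNA. Of the 239 genes, 80 had 120 further probes, and 64 of these, in 47 genes, were detected. On the E29 array 63 were higher than the median of the other 11 arrays and 1 was lower. Of 2962 detected further probes of other genes 61.9% were higher. At least 2-fold was reached by 45 of the 64 (70.3%), beside 10.4% of those of other genes, and the whole rule was passed by 18. The median log2 ratio was 1.18, beside 0.27. Because 3 of the 64 were detected on E29 alone, detection was also asked of the 11 arrays other than E29 only, an alternative added after seeing the data. Then 39 probes in 32 genes were left, all 39 were higher and 27 (69.2%) at least 2-fold, beside 64.6% and 7.6% of 2158 probes of other genes, with a median log2 ratio of 1.19 beside 0.29. In neither comparison were the probes of other genes matched for signal, and 2-fold was reached more often at low signal, as given above. The part this plays was not tested. The 1 lower probe of the 64 belonged to Srsf10, a splicing factor: its brightest probe read 519 with E29 against 228 in the activated control and 269.5 in the non-activated control, while 1 further probe read 21.3 with E29, where it was not detected, against 58.2 in the activated control and 31.8 in the non-activated control. Another probe of Srsf10 read 254.8 with E29, 1.19 times the median of the others.

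Some features that the rule did not use set the genes apart in size from all measured genes, without a test. The median promoter GC content was 58.5%, beside 61.0% over all measured genes and 63.0% over the genes lowered with E29. The ratio of observed to expected CpG was 0.71, beside 0.78 and 0.83. TATAAA was found in 12.2% of the promoters, beside 7.23% of all measured genes, 4.23% of lowered ones and 14.2% of the 27025 promoters in the table. GGGCGG was found in 56.1%, beside 65.9%, 71.6% and 35.9%, and CCAAT in 43.9%, beside 39.6%, 39.3% and 37.9%. TGACGTCA, the cAMP response element, was found in 2.55%, beside 3.43%, and CACGTG, the E-box, in 9.18%, beside 10.4%, while AAANNGAAA was found in 9.18%, beside 7.54%, and GGGACTTTC, an NF-kB site, in 0.51%, beside 0.299%. TGACGTCA was in 5 of the members' promoters and GGGACTTTC in 1. Genes spanned a median of 27967 bases, beside 21940 over all measured genes and 16246 over lowered ones. Chromosome X held 17 of the genes (7.11%, beside 3.26% of measured genes and 1.01% of lowered ones), and chromosome 11 held 11 (4.60%, beside 8.68% and 10.1%). Other chromosomes differed too, such as chromosome 6 (7.11%, beside 4.98%) and chromosome 16 (1.67%, beside 3.06%). The motifs are words in a window, searched on both strands, and none contains another. The sets compared were not matched for signal, and the part this plays was not tested.

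The edge of the rule cut through a continuum. Just inside the limit of 1.5 times the highest other array lay Fam131b at 1.504, Cacna2d1 at 1.510 and Morn5 at 1.514. Just outside lay Lrrc20 at 1.4997, Tmem38a at 1.4988 and Susd4 at 1.4984, and these 6 genes read 2.05 to 2.69 times the median of the other arrays.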

How the data were processed

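RNA of the 12 groups, 1 array each, was amplified from 400 ng with a transcription step of 12 h and read on Illumina bead arrays, per the labels' protocols. The authors deposited mean bead intensities without normalisation, and with them a detection p-value for every probe, per the file headers; the submitters' processing notes name GenomeStudio 2010.3. The authors also deposited processed intensities on a linear scale, with 45.1% to 45.2% of probes at a floor of 10 and array medians of 14.9 to 15. How those were normalised is not stated in the sources used here. No build was given for the arrays.

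Of 25697 probes, 23978 carried a gene symbol in the platform annotation. A gene was read from its brightest probe by mean over the 12 arrays. It was measured if its detection p was under 0.01 on at least 1 array. Ratios were taken on the processed values, and a gene was counted as higher or lower at 2-fold. Where a control did not detect a gene, the array's lowest detected intensity (30.9 to 55.9 over the arrays) was used in its place if higher, and the ratio is written as at least. Other scalings were computed from the deposited intensities with limma 3.58.1 (R 4.3.3), by neqc with an offset of 16 or 50, with a common median, and with 10 reference genes. Further alternatives changed the minimum intensity, the activation window and the ratios, or left out an array. Counts used Python 3.11.15 with pandas 2.3.3, numpy 2.4.6 and matplotlib 3.10.9. The scripts were tested on simulated data.

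The members, roles and lists were chosen with earlier results of these data known. The genes named were the 25 with the largest ratio, the 10 with the highest E29 intensity, those on the lists and families, those next to the threshold and those with a further probe going the other way. Other names are examples chosen after their values were seen. Symbols starting with LOC, or Gm with digits, or ending in Rik (3 members) are counted and not named. With 1 array per group no test was run and no standard error given, and the number of arrays limits the precision.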

Additional observations from a re-analysis of the deposited data

Results flagged for a closer look

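Probes that the platform annotation does not name were also put through the rule. There were 1719 such probes, of which 668 had a detection p under 0.01 somewhere among the arrays, and 21 of these passed the whole rule with E29 (3.14%, beside 2.94% of measured named genes). Their ratios to the median of the other 11 arrays ran from 2.003 to 3.37 with a median of 2.36. The 2 shares are close, and the first counts probes while the second counts genes by their brightest probe. The count is therefore description only. With 1 array per group, samples within a group could not be checked against each other.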

How the results depend on the processing

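The number of genes found by the rule was 239. It became 2 on deposited intensities scaled to a common median, 3 with reference gene scaling, 135 with a minimum E29 intensity of 200, 126 with a narrower activation window (lower limit 0.9), 457 with no condition on the activated control and 15 with 3 times the median of the other arrays. It stayed between 203 and 316 with neqc values (229, of which 192 were shared), with any probe, with all detected probes, with a minimum of 50, without the E4 array (305, with 238 of the 239 among them), without the E33 array (with 234 of the 239 among them) and for genes detected on all 12 arrays (215). The counts at least 2-fold above the median of the others, the activated control and the non-activated control were 81, 108 and 93 with a neqc offset of 50, 24, 37 and 15 with the common median, 9, 8 and 4 with reference gene scaling, and 1, 1 and 1 in the deposited intensities. With neqc they were 200, 198 and 189. The median log2 ratio of E4 to the activated control turned to -0.037 in the deposited intensities and -0.0099 with reference gene scaling, both added after seeing the data. The causes were not tested. None of the 58 members named by the fixed criteria changed direction in 290 values, which leave out the genes named as examples. Those values re-express the arrays on which the members were chosen, so the count follows in large part from the choice. No paired analysis was possible because each group holds 1 array. Signal over background limits the dim genes: 104 of the 239 read under 200 with E29.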
